A study of Mus musculus with 6 samples.

Results

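In the mouse blastocyst 6 genes, *Fasl*, *Has2*, *Ptger3*, *Ctsll3*, *Itgb3* and *Gpr1*, were examined among the 23420 genes of the count tables. They were selected on their read counts in blastocysts, which were far lower in embryos from uteri lacking epithelial *Lif* than in embryos from control uteri, whether or not the mother had received Lif protein. The blastocyst values that chose the 6 genes are therefore given as a description, without a test. Their levels in the uterine luminal layer of the same groups, and the levels of their partners, were not used to choose them.

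RNA was sequenced at 8 pm on day 4 of mouse pregnancy from flushed blastocysts and from the uterine luminal layer cut out by laser microdissection. Control females were *Lif*-floxed/floxed without Cre and received PBS. *Lif* eKO females were *Lif*-floxed/floxed Ltf-Cre/+ and received PBS, and rLif-treated *Lif* eKO females of that genotype were injected at 10 am and again at 6 pm with recombinant Lif (rLif), 20 µg per head each time, so that dissection came 2 h after the second dose. The *Ltf* promoter drives Cre in the uterine epithelium, and the embryos, labelled *Lif*-floxed/+ in all 3 groups, were not the target of the deletion. Both tissues of a group are pools of several animals or embryos, and each of the 6 groups is 1 library. No value here has a replicate check, no p-value is given, and a difference compares 2 libraries rather than 2 conditions.

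Attachment joins the outer cell layer of the blastocyst, the trophectoderm, to the luminal epithelium of a receptive uterus, and Lif secreted by the uterine glands is needed for it in mice. The blastocyst itself must also become competent to attach, a state in which trophectoderm cells change their surface receptors, adhesion molecules and secreted enzymes. *Fasl* encodes Fas ligand, a membrane protein of the tumour necrosis factor family that triggers death of cells carrying its receptor Fas. *Has2* encodes a hyaluronan synthase and *Ctsll3* a cathepsin L-like cysteine protease, while *Itgb3* encodes integrin β3, which pairs with integrin αv to bind osteopontin, vitronectin and fibronectin. *Ptger3* encodes EP3, one of the receptors of prostaglandin E2, and *Gpr1* encodes a receptor of the secreted protein chemerin.

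The genes lie on 5 chromosomes of GRCm38/mm10, and all are annotated as protein coding. *Fasl* covers chr1:161780692-161788495 on the minus strand and *Gpr1* chr1:63182691-63214209, also on the minus strand. *Ptger3* covers chr3:157566892-157644758 on the plus strand, *Itgb3* chr11:104608000-104670471 on the plus strand, *Ctsll3* chr13:60798250-60802844 on the minus strand and *Has2* chr15:56665627-56694546 on the minus strand. These spans run from the first to the last exon base of the count tables. Because the genes were low together, the 100 bases before the RefSeq start of those with a RefSeq promoter entry (GRCm38.p6) are shown, 5′ to 3′ on the strand of the gene, with a TATA motif in capitals.
Fasl, chr1:161788496-161788595: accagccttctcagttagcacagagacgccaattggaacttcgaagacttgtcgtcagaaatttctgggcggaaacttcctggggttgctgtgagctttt
Ptger3, chr3:157566776-157566875: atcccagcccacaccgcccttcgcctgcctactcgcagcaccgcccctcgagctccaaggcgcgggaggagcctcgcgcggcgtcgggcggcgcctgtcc
Ctsll3, chr13:60802845-60802944: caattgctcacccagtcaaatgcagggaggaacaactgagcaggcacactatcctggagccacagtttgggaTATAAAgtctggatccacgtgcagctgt
Gpr1, chr1:63214282-63214381: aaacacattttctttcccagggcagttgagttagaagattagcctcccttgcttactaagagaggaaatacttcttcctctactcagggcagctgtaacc

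These starts differed in base composition. Over the 250 bases before each start, G and C made up 62.0% in *Ptger3*, 53.6% in *Fasl*, 51.6% in *Ctsll3* and 40.8% in *Gpr1*. A second *Gpr1* start, at base 63210716, had 42.0%. Short motifs of factors known from trophoblast or from Lif signalling were searched on both strands of these 5 windows. The TEAD motif was searched as GGAATG, that of AP-2 as GCCNNNGGC, the STAT motif as TTCNNNGAA, that of AP-1 as TGANTCA, and the motif of GATA factors as AGATAA. None of them occurred in any of the 5 windows. Among all 32851 RefSeq windows of that length, the share holding each was 12.6%, 13.7%, 7.02%, 6.75% and 9.99%. After the sequences had been seen, the letters TATAAA were searched as well. They began 28 bases before the *Ctsll3* start, the distance usual for a TATA box, and lay on the opposite strand 234 bases before the first *Gpr1* start. They were present in 12.4% of all windows.

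In control blastocysts the 6 genes spanned a wide range of levels. In TPM, the abundance normalized for gene length and depth that was computed from the counts, *Ctsll3* was highest at 337 TPM (exact Poisson 95% interval 326.5 to 348). *Fasl* followed at 40.8 TPM (37.7 to 44.0), *Ptger3* at 30.5 TPM (27.9 to 33.2), *Itgb3* at 21.0 TPM (19.7 to 22.3), *Gpr1* at 12.2 TPM (10.4 to 14.2) and *Has2* at 5.70 TPM (4.95 to 6.54). No neighbours in that order had overlapping intervals. All intervals here cover counting error only, since PCR reads without molecular identifiers are not independent molecules. Among the genes detected in that library, *Ctsll3* stood at percentile 96.5, *Fasl* at 71.3, *Ptger3* at 65.9, *Itgb3* at 59.2, *Gpr1* at 50.9 and *Has2* at 41.1.

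*Fasl*, the ligand among them, had 668 counts in control blastocysts, 3 in blastocysts from *Lif* eKO uteri and 13 in those from rLif-treated *Lif* eKO uteri. In CPM, the counts scaled to a common library size by TMM factors, these were 35.0, 0.153 and 0.669 CPM. The *Lif* eKO value was 0.438% of control, a log2 ratio of -7.83 (exact Clopper-Pearson 95% interval -10.12 to -6.28). With rLif it was 1.91% of control, a log2 ratio of -5.71 (-6.63 to -4.93). The rLif-treated library held more reads than the untreated one, but at 13 against 3 counts the interval of that log2 ratio, 0.26 to 4.58, reached below a 2-fold difference.

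*Has2*, the hyaluronan synthase, had 205 counts (10.7 CPM) in control blastocysts and 0 in both other blastocyst libraries. Set against a floor of 3 counts per library, it was at least 70.1-fold lower in *Lif* eKO and at least 69.7-fold lower in rLif-treated *Lif* eKO than in control. Exons of *Has2* overlap those of *Has2as*, a transcript of the opposite strand, and whether the counting used strand is not given in the sources used here, so *Has2* counts are uncertain in general. In the 3 blastocyst libraries, however, *Has2as* had 0 counts.

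*Ctsll3*, the protease, was the most abundant of the 6 in control and was still detected in the other blastocyst libraries. It had 3804 counts in control, 276 in *Lif* eKO and 67 in rLif-treated *Lif* eKO blastocysts, or 199.5, 14.1 and 3.45 CPM. The log2 ratio to control was -3.82 (-4.0 to -3.64) in *Lif* eKO and -5.86 (-6.23 to -5.51) with rLif. Between the rLif-treated and untreated libraries it was -2.03 (-2.44 to -1.64), so the rLif-treated embryos were the lowest of the 3. *Ctsll3* belongs to a cluster of similar genes. Of its 1391 exonic windows of 50 bases, 36 (2.59%) also occurred in *BC051665*, which lies 11886 bases away, and reads there could be assigned to either gene. *BC051665* had 22919, 21729 and 8782 blastocyst counts in the same order, a log2 ratio to control of -0.11 in *Lif* eKO and of -1.41 with rLif. The *Lif* eKO decrease of *Ctsll3* was thus not shared by its neighbour, but both genes had fewer counts with rLif than without. How many of the 276 and 67 *Ctsll3* counts came from the shared sequence was not tested.

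*Itgb3*, the adhesion receptor, followed the same order as *Ctsll3*. It had 1026 counts in control, 93 in *Lif* eKO and 19 in rLif-treated *Lif* eKO blastocysts, or 53.8, 4.76 and 0.977 CPM. Its log2 ratio to control was -3.50 (-3.82 to -3.19) in *Lif* eKO and -5.78 (-6.52 to -5.13) with rLif. It was again lower with rLif than without, by a log2 ratio of -2.28 (-3.08 to -1.56).

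*Ptger3*, the prostaglandin receptor, had 521 counts in control, 6 in *Lif* eKO and 11 in rLif-treated *Lif* eKO blastocysts, or 27.3, 0.307 and 0.566 CPM. The 2 low libraries were 1.12% and 2.07% of control, and their own log2 ratio of 0.88 had an interval of -0.68 to 2.60. *Gpr1*, the chemerin receptor, had 166, 4 and 2 counts in that order, or 8.71, 0.205 and 0.103 CPM. Its log2 ratio to control was -5.41 (-7.30 to -4.03) in *Lif* eKO and -6.40 (-9.46 to -4.53) with rLif. At such counts, no order of the 2 low libraries was detectable for either receptor.

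**Figure D1:**
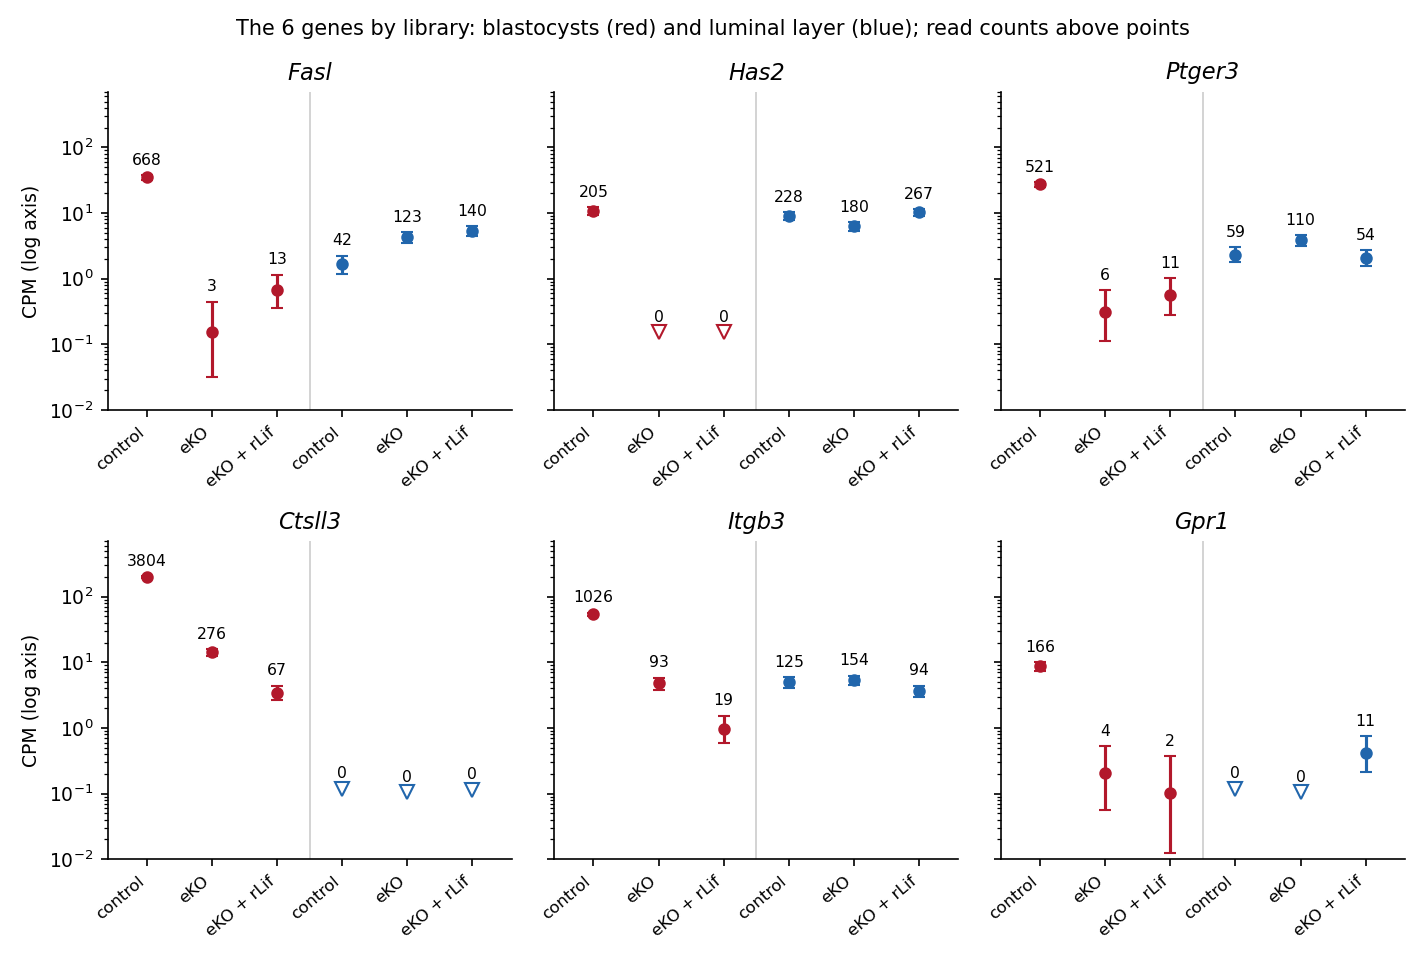
Level of each of the 6 genes in the 3 blastocyst libraries (red) and the 3 luminal libraries (blue), in CPM on a log axis, with read counts above the points. Bars are exact Poisson 95% intervals and open triangles mark 0 counts at the floor of 3 counts. Every gene has its highest blastocyst value in control, and the luminal values of *Fasl*, *Has2*, *Ptger3* and *Itgb3* lie between 1.66 and 10.3 CPM.

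A gene is called higher or lower here when the whole 95% interval of its ratio lies beyond a 2-fold difference. All 6 genes were called lower in both ratios to control, a direction that their choice on these counts fixes. Among all 14873 genes tested in blastocysts, those with at least 10 counts over the 3 libraries, 1.86% were lower in *Lif* eKO than in control, 3.99% were lower with rLif than in control, and 1.18% (176 genes) were lower in both. Both ratios use the same control library. Of the 9754 genes with at least 100 control counts, 0.656% were lower in both. Of the 176 genes, 19 lay below 10% of control in both libraries, and the 6 described here are among them. With at least 100 control counts, which all 6 have, 9 of the 19 remained. The 6 were chosen for such low counts. Between rLif-treated and untreated *Lif* eKO blastocysts, *Ctsll3* and *Itgb3* were called lower, against 2.83% of all genes, and the other 4 were not called.

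No fixed cut-off separated the 6 from the genes next to them. When the 12196 genes with at least 20 control counts were ranked by the higher of the 2 upper interval bounds, *Has2* was at rank 1, *Fasl* at 2, *Ptger3* at 3, *Gpr1* at 5, *Ctsll3* at 7 and *Itgb3* at 9. Between them stood *Psg29* at rank 4 (88, 0 and 0 counts), a pregnancy-specific glycoprotein of the placenta, *Tfec* at rank 6 (279, 13 and 4), a transcription factor, and *Ccl8* at rank 8 (37, 0 and 0), a chemokine. *Hpgd*, at rank 10, encodes the enzyme that starts the breakdown of prostaglandin E2 and had 408, 36 and 22 counts. The next genes were *Prl5a1*, of the placental prolactin family (29, 0 and 0), the lactate transporter *Slc16a3* (1668, 198 and 55), the steroid dehydrogenase *Hsd17b2* (28, 0 and 0), the protocadherin *Pcdh12* (28, 0 and 0), the imprinted placental gene *Phlda2* (890, 59 and 105) and the VEGF receptor *Kdr* (27, 0 and 0).

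**Figure D2:**
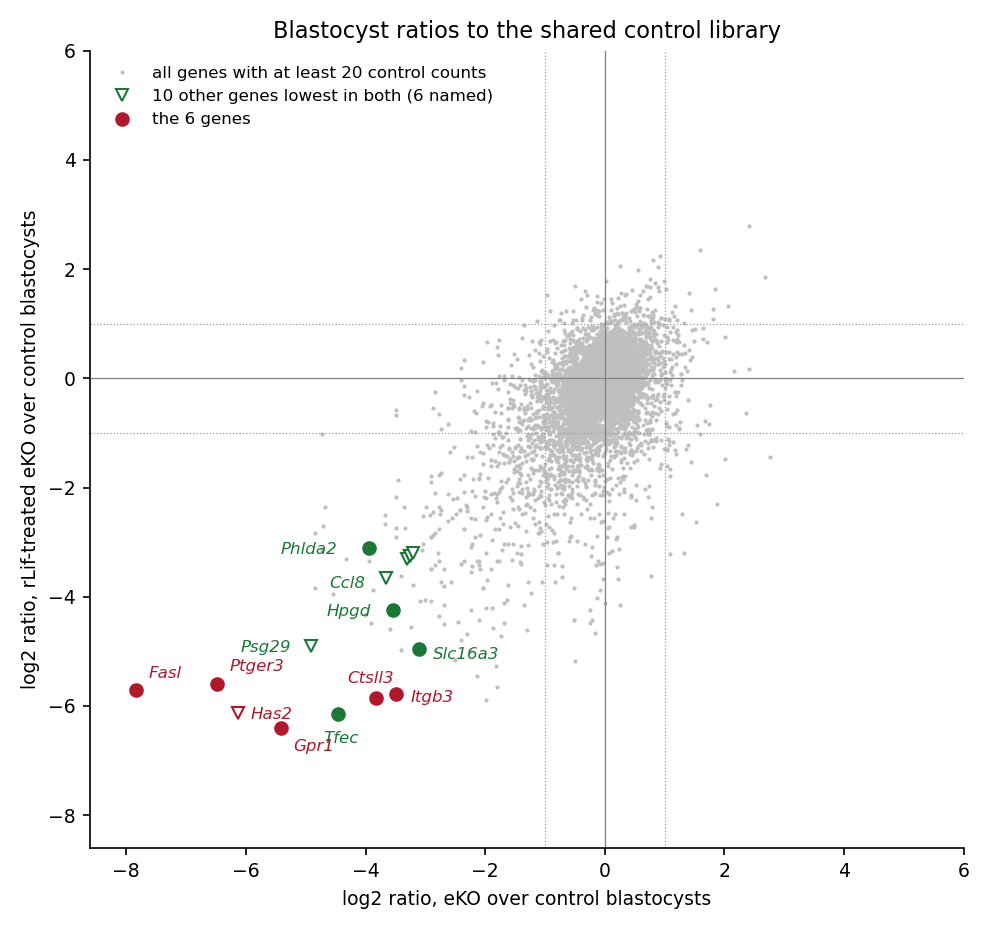
Log2 ratio to control in blastocysts from *Lif* eKO uteri (x axis) and from rLif-treated *Lif* eKO uteri (y axis). Grey points are all genes with at least 20 control counts, red the 6 genes, green the next 10 by rank, and open triangles genes at 0 counts set to the floor, with dotted lines at 2-fold. The 6 genes lie between -7.83 and -3.50 on the x axis and between -6.40 and -5.59 on the y axis, away from the mass of genes around 0.

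Over all 6 libraries of both tissues, the gene with the pattern most like each of the 6 was found by Euclidean distance of log2(CPM + 2). The blastocyst libraries that chose the 6 genes enter this distance, so likeness to each other and to other lowered genes is partly set by that choice. *Fasl* and *Ptger3* were each other's nearest gene, at a distance of 0.965. The nearest genes to *Gpr1* were *Dnase1l3*, a secreted DNase with 206, 20 and 17 blastocyst counts (distance 0.693), and *Psg29* (0.764). *Itgb3* was nearest to *Nfatc1*, a calcium-regulated transcription factor with 712, 85 and 23 counts (1.56), and to *Phlda2* (1.85). *Has2* was nearest to *Afap1l2* (1.25) and *Phldb1* (1.25), and *Ctsll3* to the laminin receptor subunit *Itga7* (2.24) and to *Cubn* (2.37). *Fasl* and *Ptger3* had *Hpgd* (2.03) and *Adam8* (2.01) as their second neighbours.

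The luminal layer gave the levels of the same genes on the maternal side. *Lif* itself had 28 counts in the luminal library labelled as eKO and 0 in those labelled as control and as rLif-treated eKO. These counts run against the labels, but they are a weak check of them. Before attachment Lif comes mainly from the glands rather than the luminal epithelium, and the counts cover the whole gene, not only the floxed exons. The luminal libraries are therefore called control-labelled, eKO-labelled and rLif-labelled, and luminal values are given in that order. Blastocyst *Lif* counts were 1447, 1736 and 1250. In the control-labelled luminal library, *Has2* had 3.73 TPM (3.26 to 4.24), *Ptger3* 2.03 TPM (1.54 to 2.62), *Fasl* 1.51 TPM (1.09 to 2.04) and *Itgb3* 1.5 TPM (1.25 to 1.79). The last 3 had overlapping intervals. *Gpr1* and *Ctsll3* had 0 counts there, which a floor of 3 counts limits to 0.119 CPM.

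Per length, control blastocysts exceeded the control-labelled luminal library in all 6 genes. The excess was at least 2160-fold for *Ctsll3*, at least 94.2-fold for *Gpr1*, 27.1-fold for *Fasl*, 15.0-fold for *Ptger3* and 14.0-fold for *Itgb3*. For *Has2* it was 1.53-fold, a log2 ratio of -0.61 (-0.89 to -0.33) of luminal over blastocyst TPM. Between *Lif* eKO blastocysts and the eKO-labelled luminal library the order was turned for 3 genes. Luminal TPM exceeded blastocyst TPM 19.0-fold for *Fasl*, at least 27.9-fold for *Has2* and 8.52-fold for *Ptger3*. In the rLif-treated pair it did so 5.15-fold for *Fasl*, at least 42.6-fold for *Has2*, 2.35-fold for *Ptger3* and 2.37-fold for *Itgb3*. *Gpr1* had a log2 ratio of 1.39 there with an interval of -0.80 to 4.61, and *Ctsll3* stayed higher in the blastocysts of both pairs. The 2 tissues were counted in separate tables, so these folds rest on the assumption that TPM is comparable between them. With RPKM on TMM-scaled sizes in place of TPM, the *Has2* log2 ratio in control was -0.25. That of *Itgb3* in the *Lif* eKO pair turned from -0.38 to 0.17.

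*Has2* had 228, 180 and 267 luminal counts. Its log2 ratios to control were -0.53 (-0.82 to -0.24) and 0.18 (-0.08 to 0.44), so it kept a level within 2-fold of control in the layer where the blastocyst libraries fell to 0. *Has2as* had 6, 15 and 11 luminal counts. *Itgb3* had 125, 154 and 94 counts, with log2 ratios to control of 0.12 (-0.23 to 0.47) and -0.46 (-0.86 to -0.06).

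*Fasl* had 42, 123 and 140 luminal counts. The eKO-labelled and rLif-labelled libraries both lay above control, by a log2 ratio of 1.36 (0.85 to 1.91) without rLif and of 1.69 (1.19 to 2.23) with it, and only the latter was called. *Ptger3* had 59, 110 and 54 counts. Its log2 ratio to control was 0.71 (0.24 to 1.19) in the eKO-labelled and -0.17 (-0.73 to 0.39) in the rLif-labelled library. *Gpr1* had 0, 0 and 11 counts, at least 3.56-fold higher with rLif than in control and at least 4.04-fold higher than in the eKO-labelled library, at a level of 0.377 TPM. *Ctsll3* had 0 counts in all 3 luminal libraries.

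In the luminal layer 5 of the 6 genes could thus be tested. For the eKO-labelled library against control, 0 of the 5 were called, against 8.08% of 15694 genes higher and 9.15% lower. *Gpr1*, at 0 counts in both of these libraries, could not be called there. For the rLif-labelled library against control, *Fasl* and *Gpr1* were higher and 0 lower, against 4.12% and 5.04% of all genes (647 and 791 genes, or 439 and 1031 when scaled by total counts, which called the same 2 of the 6). For the rLif-labelled against the eKO-labelled library, *Gpr1* alone was higher, against 7.88% higher and 7.77% lower among all genes. The 11 reads of *Gpr1* are the whole basis of both its calls. The same reads let it pass the minimum, so its calls are a description and not a test.

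**Figure D3:**
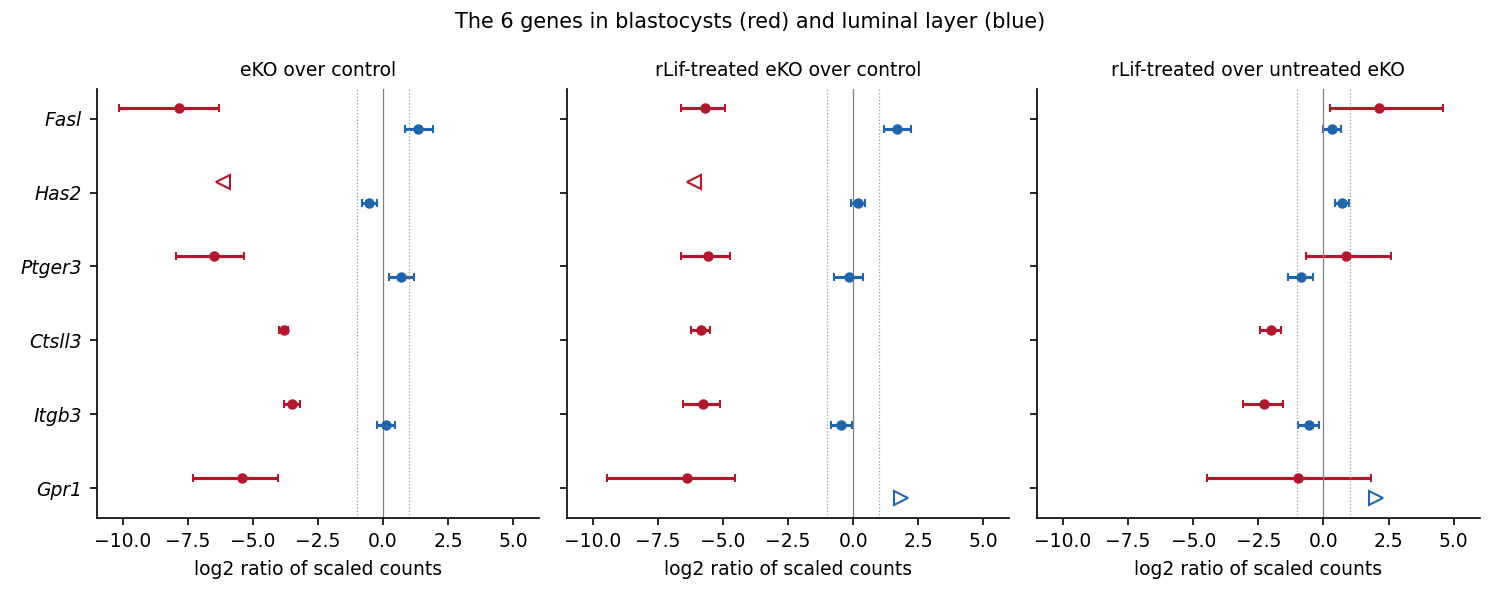
Log2 ratios of the 6 genes in blastocysts (red) and in the luminal layer (blue) for 3 comparisons, with exact 95% Clopper-Pearson intervals. Open arrowheads are bounds against a library at 0 counts, and pairs at or under the floor are left out. Blastocyst ratios to control lie at -3.50 or below, luminal ones between -0.53 and 1.83.

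The partners of each gene were then read from lists of its pathway, none of which contains the 6 genes. Of the 10 genes of the Fas pathway, 1 was higher and 0 lower in *Lif* eKO than in control blastocysts. Of all 14873 genes, 192 were higher and 276 lower there. With rLif against control 0 of the 10 were called, and against untreated *Lif* eKO *Fas* and *Casp8* were lower. The receptor *Fas* had 0, 19 and 2 blastocyst counts, so the ligand of control blastocysts was measured without its receptor in the same library. In the luminal layer *Fas* had 114, 21 and 159 counts, 4.39, 0.630 and 4.86 TPM. It was lower in the eKO-labelled library than in control by a log2 ratio of -2.63 and higher with rLif than without by 3.06. *Casp8*, the first protease acting below Fas, had 0.765 TPM in control blastocysts and 41.6 TPM in the control-labelled luminal library.

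Of 12 tested genes of hyaluronan synthesis, binding and breakdown, 1 (*Vcan*, a hyaluronan-binding proteoglycan, at 18, 0 and 16 counts) was lower in *Lif* eKO than in control blastocysts, against 1.86% of all genes. With rLif 0 were called against control, and against untreated *Lif* eKO *Vcan* was higher and *Lyve1* lower. Of all 14873 genes, 136 were higher and 421 lower in that last comparison. The other synthases were scarce. *Has1* had 2, 0 and 0 blastocyst counts and *Has3* 36, 24 and 18, whereas *Has2* had 205 in control. The hyaluronan receptor *Cd44* had 24, 51 and 18 counts in blastocysts and 648, 1956 and 689 in the luminal layer, where it was higher in the eKO-labelled library by a log2 ratio of 1.41.

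In the prostaglandin E2 list, 11 genes were tested in blastocysts. In *Lif* eKO 1 was higher (*Pla2g4a*, the phospholipase that frees arachidonic acid, at 2, 29 and 0 counts) and 1 lower (*Hpgd*), against 192 and 276 of all 14873 genes. With rLif 2 were lower than control, against 3.99% of all genes. These were *Hpgd* and *Ptger4*, a receptor with 29, 27 and 4 counts. The synthase *Ptges* was abundant in blastocysts and nearly level, at 364, 436 and 459.5 TPM, against 3.82 TPM in the control-labelled luminal library. Unlike *Ptger3*, *Ptger2* and *Ptger4* were higher in the luminal layer. *Ptger2* had 0.470 TPM in control blastocysts and 475 TPM in the control-labelled luminal library, and *Ptger4* had 1.15 and 47.8 TPM. *Ptger1* was at 5.56 and 3.83 TPM, the same direction as *Ptger3*.

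Of 11 tested cathepsins and inhibitors, *Ctsz* was lower in *Lif* eKO than in control blastocysts (1555, 674 and 505 counts), and *Ctsz* and *Ctsq* (11, 1 and 0 counts) were lower with rLif. Among all genes 1.86% and 3.99% were lower in these comparisons. *Ctsl*, the lysosomal cathepsin, had 6739, 7089 and 6097 counts, *Ctsb* 4158, 3432 and 2927, and the inhibitor *Cst3* 1640, 1706 and 1635. None of these 3 was called in blastocysts. In the luminal layer *Ctsl* fell from 337 TPM in the control-labelled to 79.3 TPM in the eKO-labelled library.

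None of the 12 tested integrin partners and ligands was called in any blastocyst comparison, where 468, 734 and 557 of all 14873 genes were called in either direction. *Itgav*, the usual partner of integrin β3, had 1282, 997 and 637 counts, with a log2 ratio to control of -0.40 in *Lif* eKO and -1.04 with rLif. Other β subunits that pair with it, *Itgb1* (4487, 4625 and 4436 counts) and *Itgb5* (1594, 1726 and 2178), were near control, as was the ligand osteopontin (*Spp1*, 20635, 22105 and 21863 counts). In the luminal layer *Spp1* had 233, 41.2 and 94.7 TPM and *Itgb5* 87.3, 35.7 and 28.7 TPM, both lower in the eKO-labelled library than in control.

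Of the 3 other genes of the chemerin system, *Cmklr1*, a second chemerin receptor, had 448, 241 and 97 counts in blastocysts and was called lower with rLif (log2 ratio -2.24) but not without (-0.93). *Ccrl2*, which binds chemerin without signalling, had 12, 88 and 7 counts and was higher in *Lif* eKO (2.84). Of all 14873 genes, 593 were lower with rLif than in control and 192 higher in *Lif* eKO. The chemerin gene *Rarres2* had 5, 5 and 3 blastocyst counts. Its luminal levels were 53.8, 127.7 and 75.2 TPM, higher in the eKO-labelled library than in control by a log2 ratio of 1.42, so the 2 chemerin receptors were read in the embryo and the ligand in the uterine layer.

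**Figure D4:**
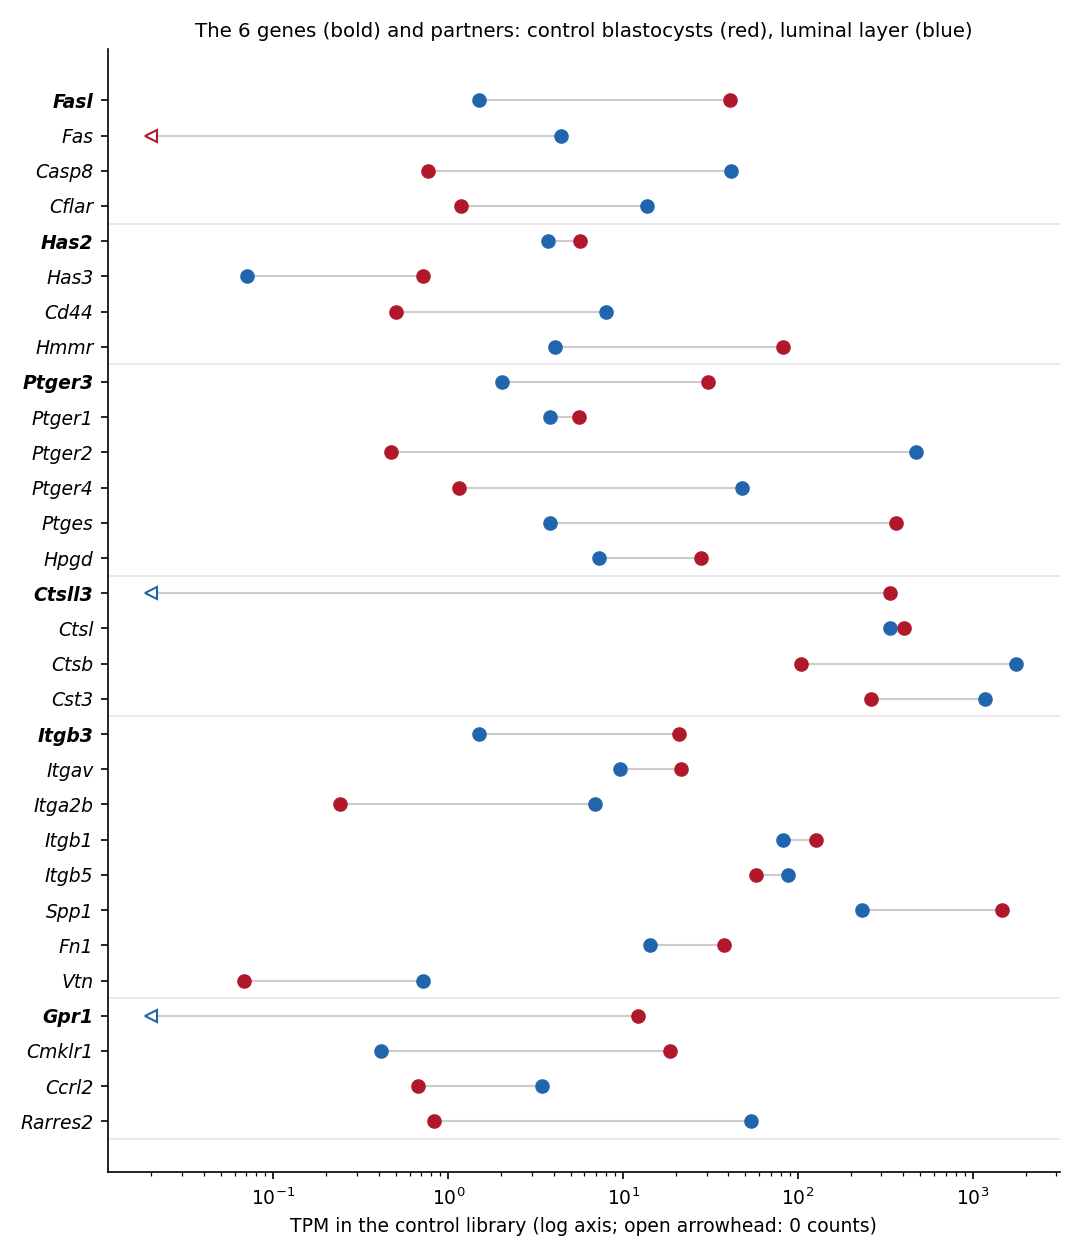
Level per length, in TPM on a log axis, of the 6 genes (bold) and of their partners in control blastocysts (red) and in the control-labelled luminal library (blue). Open arrowheads are libraries at 0 counts, drawn at the left edge. *Fas*, *Cd44*, *Ptger2* and *Rarres2* are higher in the luminal layer, at 4.39, 7.95, 475 and 53.8 TPM, while all 6 genes in bold are higher in blastocysts.

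The embryonic make-up of the blastocyst libraries was read from cell type markers, since in bulk RNA fewer cells of a type and less RNA per cell cannot be told apart. The 10 trophectoderm markers summed to between 7587 and 8042 CPM in the 3 libraries, with a median log2 ratio to control of 0.00 in *Lif* eKO and -0.06 with rLif. One of the 10, *Hand1*, a factor of trophoblast giant cells (253, 56 and 72 counts), was lower in *Lif* eKO, and *Hand1* and *Elf5* were lower with rLif. The shares of all genes lower than control were 1.86% in *Lif* eKO and 3.99% with rLif, for this and the next lists. The 7 inner cell mass markers summed to between 1251 and 1470 CPM and the 6 primitive endoderm markers to between 1431 and 1555 CPM. Of 8 tested markers of giant cells and late mural trophectoderm, *Ascl2* (335, 53 and 15 counts) was lower in *Lif* eKO. With rLif *Plac1*, *Ndrg1* and *Ascl2* were lower and *Mmp9* higher, where 593 of all 14873 genes were lower and 141 higher. The giant cell list summed to 3501, 4013 and 1804 CPM. The trophectoderm sum was 7587 CPM in control and 8042 CPM in *Lif* eKO, and such a sum is weighted to the most abundant markers. The part of cell number, cell state or stage in the decrease of the 6 genes was not tested.

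Maternal cells flushed with the embryos were also read, since *Fasl* is a known product of T and natural killer cells, *Itgb3* of platelets and *Has2* of stroma. The 8 T and natural killer cell markers in the tables summed to 9.39, 3.68 and 3.04 CPM in blastocysts, with *Cd3e* (26, 4 and 14 counts) and *Prf1* (37, 8 and 2 counts) lower in *Lif* eKO. With rLif *Klrb1c*, *Gzma* and *Prf1* were lower than control. The shares of all genes lower were 1.86% and 3.99%. The median log2 ratio of the 8 to control was -1.46 in *Lif* eKO and -1.84 with rLif, against 0.0 and -0.01 for all genes. In control blastocysts *Fasl* had 35.0 CPM. In the control-labelled luminal library the same markers summed to 76.8 CPM, where *Fasl* had 1.66 CPM. CPM is not scaled for gene length, so levels of different genes do not give the cell source. The 6 platelet markers summed to 1.31, 3.58 and 2.42 CPM. *Itga2b*, the platelet partner of integrin β3, had 7 counts in control blastocysts and *Itgb3* had 1026. The 7 stromal markers summed to 40.6, 28.7 and 23.7 CPM. Of the 6 of them tested, *Vim* was lower in *Lif* eKO, and *Dcn*, *Col3a1* and *Hoxa10* were lower with rLif, with a median log2 ratio to control of -1.03 and -1.49, beside 205, 0 and 0 counts of *Has2*. Macrophage and neutrophil markers (7 in the tables) summed to 61.3, 129.1 and 23.7 CPM, the 6 glandular markers to 6.71, 3.53 and 1.44 CPM, and the 6 cumulus markers to at most 0.787 CPM. *Wnt7a*, which defines the luminal epithelium, was at 0 in all 3 blastocyst libraries and at 2916, 2968 and 4338 counts in the luminal libraries. The other 9 luminal epithelium markers include keratins and adhesion genes that trophectoderm also uses, and the list summed to between 2692 and 2844 CPM in blastocysts. Among them *Krt19* (1401, 241 and 108 counts) was lower in both libraries. The part of immune cells, platelets and stromal cells in the decrease was not tested.

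**Figure D5:**
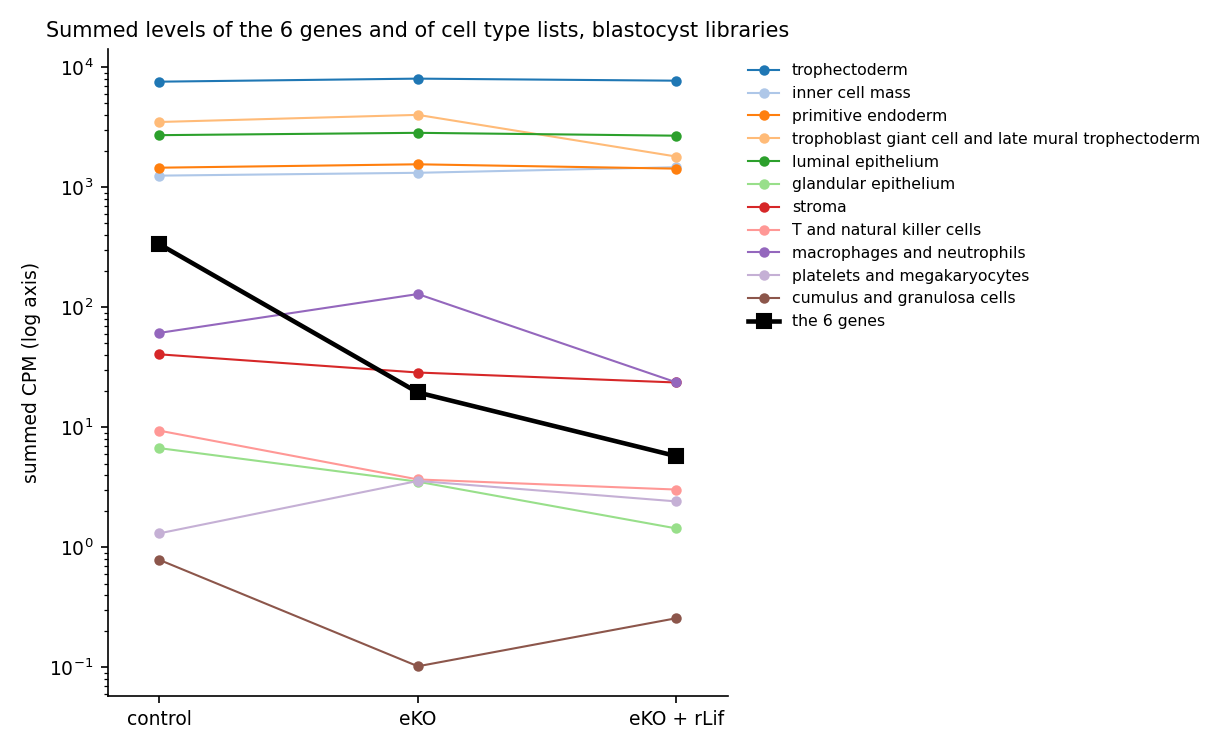
Summed CPM (log axis) of the 6 genes (black squares) and of 11 cell type lists in the 3 blastocyst libraries, with lines joining the values of a list. The 6 genes sum to 335, 19.5 and 5.76 CPM. The sums for trophectoderm, inner cell mass, primitive endoderm and luminal epithelium stay nearly level. Those for T and natural killer cells, stroma, glandular epithelium and cumulus cells are lower than control in both other libraries. The giant cell sum is lower only with rLif, the macrophage and neutrophil sum is higher in *Lif* eKO and lower with rLif, and the platelet sum is higher in both.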

How the data were processed

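Each tissue had 1 deposited table of read counts, in whole numbers, with 3 libraries as columns. Per the labels and the study's methods, the authors made SMART-seq v4 libraries, aligned reads to GRCm38/mm10 with HISAT2 and counted them with featureCounts (Subread 2.0.0), and the settings for strand and multiply mapped reads are not given in the sources used here. The methods call the output RPKM, but the values are unnormalized counts. Total counts were 18996158 to 19638852 in blastocysts and 23850565 to 28460465 in the luminal layer. TMM factors from edgeR 4.0.16 (R 4.3.3) scaled the library sizes. Genes with at least 10 counts over the 3 libraries of a tissue were tested. The ratio of 2 libraries was given an exact 95% Clopper-Pearson interval (scipy 1.17.1), and a gene was called when the whole interval lay beyond a log2 ratio of 1. A count of 0 was set to a floor of 3 counts per library. TPM was computed from the counts and the gene lengths in the deposited tables.

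The 6 genes, the 6 pathway lists and the 11 cell type lists were chosen with earlier results of these data known. Of 166 list entries, 164 matched a gene in the tables. Named genes were the 6 genes, list genes called in a blastocyst comparison and direct partners, the 10 other genes lowest in both blastocyst libraries, and the 2 nearest genes by pattern. *Has2as* and *BC051665* were added because their exons or sequence overlap those of a named gene, and other marker and luminal values after they had been seen. Sequences and starts are from RefSeq, with entries for 4 of the 6 genes.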

Additional observations from a re-analysis of the deposited data

Results flagged for a closer look

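Some of the 6 genes had log2 ratios of opposite sign in blastocysts and in the luminal layer under the same contrast, each tissue being 1 library per group. The blastocyst direction was fixed by the choice of the genes. In *Lif* eKO against control, *Fasl* had a log2 ratio of -7.83 in blastocysts and 1.36 in the luminal layer, and *Ptger3* had -6.48 and 0.71. In rLif-treated *Lif* eKO against control, *Fasl* had -5.71 in blastocysts and 1.69 in the luminal layer, and *Gpr1* had -6.40 and at least 1.83. The luminal ratios of *Fasl* and *Ptger3* in *Lif* eKO against control were not called. The difference between the tissues was not tested, and the luminal groups are as labelled. The luminal *Gpr1* value rests on 11 counts against 0.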

How the results depend on the processing

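No paired analysis was possible because each group had 1 library, and no library could be left out. Other scalings (DESeq2 size factors, total counts, upper quartile) moved the log2 ratios of the 6 genes by at most 0.18, within their intervals in 93 of 93 cases, and left the number of the 6 genes called in each comparison as it was. All 6 genes stayed lower than control in both blastocyst ratios under each scaling, minimum and limit tried, and under edgeR's exact test with an assumed dispersion of 0.1. Because the 6 were chosen on these same counts, this outcome is a description and not independent support. At an assumed dispersion of 0.4 this test called 0 of the 6 in either ratio, and 0 of all genes. Between rLif-treated and untreated *Lif* eKO blastocysts, the 2 called genes became 0 with a log2 limit of 2 and under the exact test at 0.1 or 0.4. In the luminal layer, a log2 limit of 0 called 3 of the 6 between eKO and control. For rLif-treated eKO against control, the 2 called became 1 (*Fasl*) with a minimum of 50 counts, and 0 with a log2 limit of 2 or under the exact test at 0.1 or 0.4. For rLif-treated against untreated eKO, the 1 called became 0 with a minimum of 50 counts, a log2 limit of 2 or the exact test at 0.1 or 0.4, and 4 with a log2 limit of 0. The 176 genes lower in both blastocyst libraries became 106 with a minimum of 50 counts, 1647 with a log2 limit of 0, 49 with a limit of 2, and 34 and 0 under the exact test at 0.1 and 0.4. Among all genes, the 276, 593 and 421 lower in the blastocyst comparisons (*Lif* eKO against control, rLif-treated against control, rLif-treated against untreated) became 139, 378 and 259 with a minimum of 50 counts, 3274, 3964 and 4081 with a limit of 0, 68, 136 and 85 with a limit of 2, 45, 115 and 53 under the exact test at 0.1, and 0 in each at 0.4. The 2704, 1438 and 2456 luminal genes called in either direction became 11724, 10384 and 11212 with a limit of 0, 868, 295 and 750 with a limit of 2, 1250, 342 and 1109 under the exact test at 0.1, and 29, 0 and 36 at 0.4. A stricter limit or larger dispersion calls fewer genes by construction. With RPKM on TMM-scaled sizes in place of TPM, the log2 luminal over blastocyst ratio in control became -0.25 for *Has2*, -10.71 for *Ctsll3*, -3.44 for *Itgb3* and -6.20 for *Gpr1*, outside the counting intervals but in the same direction. Counts of 0 to 13 limit what can be said of *Fasl*, *Has2*, *Ptger3* and *Gpr1* in the 2 low blastocyst libraries.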
